A study of Rattus norvegicus with 59 samples.

Results

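Livers of rats killed 1 day after a single injection of hexavalent chromium (Cr) were compared with livers of vehicle-injected rats killed on the same day. The comparison holds 10 of the 59 arrays of the series: 5 labelled Cr 20 mg/kg Day 1 and 5 labelled Cr Control Day 1. They were chosen by these labels alone, and the Cr controls of days 3 and 7 were not pooled with the day 1 controls. The Cr livers came from male Sprague-Dawley rats given Na2Cr2O7 into the peritoneum, and the control livers from rats given sterile saline by the same route. The labels put the Cr dose at 20 mg/kg and the series text calls it the high dose, whereas 1 sentence of the methods names the middle dose for the arrays, so the dose is taken from the labels. No age is given in the sources used here. Total RNA of whole liver was hybridised to Affymetrix rat expression arrays. In the rest of the series, 4 livers on day 1 after cadmium (Cd, given as CdCl2 at 1.25 mg/kg by the same route) and 5 livers on day 3 after the same Cr dose, each with 5 same-day controls of its own, serve here for 2 further comparisons. Each array was 1 biological replicate per the labels.

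Chromate enters cells through anion carriers and is reduced inside them to trivalent chromium, which binds DNA and proteins. Reduction passes through reactive intermediates that can oxidise glutathione, and it is known to give DNA adducts, crosslinks and a p53 response in cultured cells. In the liver, hepatocytes carry most of the glutathione and the metabolic enzymes, while resident macrophages, endothelium, stellate cells and bile duct cells make up the rest of the tissue. Whole tissue was measured, so fewer cells of a type and less RNA per cell cannot be told apart.

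Every array carried the signature of liver. All 11 hepatocyte markers measured had signals above the filter used for testing, a log2 signal of 6 or more on at least 5 of the 10 arrays. The albumin gene Alb, the transthyretin gene Ttr and the hepatocyte nuclear receptor Hnf4a had log2 fold changes, Cr minus control, of -0.01, -0.03 and -0.01. Some other hepatocyte markers passed the threshold. Of the 11 markers, 2 were higher and 2 lower after Cr at the adjusted p threshold given below, and 7 did not pass. These counts were near the shares among all probe sets tested, 23.5% higher and 14.2% lower. In 2 markers every Cr liver lay above every control, and in 2 every Cr liver lay below. Among all probe sets this held for 14.2% and 8.41%. Their log2 fold changes ran from -0.40 to 0.32. Summed on the linear scale, the hepatocyte markers ranged from 183000 to 191000 in Cr livers and from 186000 to 190000 in control livers. Array medians of all probe sets lay between 5.41 and 5.45 on the log2 scale. No 2 arrays of the series held identical values.

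The 5 Cr livers did not respond to the same extent. On the first principal component of the tested probe sets, which held 57.0% of the variance, Cr livers 1 to 5 lay at -40.7, -9.85, -27.6, -43.3 and 0.95, and the 5 controls between 22.4 and 25.95. Over the 378 probe sets called higher, the median shift from the control mean was 1.34, 0.79, 1.11, 1.38 and 0.58 in Cr livers 1 to 5. Over the 325 called lower it was -1.31, -0.84, -1.10, -1.38 and -0.69. Livers 1 and 4 were thus the strongest by the probe sets chosen for the response, and liver 5 the weakest.

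A total of 13286 probe sets passed the filter and were tested with limma. Of these, 3120 (23.5%) were higher and 1890 (14.2%) lower after Cr at an adjusted p of 0.05 or less. With a fold change of at least 1.8 as well, the count was 378 higher (2.85%) and 325 lower (2.45%). These probe sets are referred to as called. Quantile normalization repeated over the 10 arrays gave 291 higher and 386 lower. All 5 Cr signals lay above all 5 control signals for 1890 probe sets (14.2%) and below them for 1118 (8.41%). The median log2 fold change of all tested probe sets was 0.06. Some probe sets passed the filter through 1 group only. There were 57 that were above 6 only in Cr livers and 30 only in controls, and such probe sets had to differ.

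Among probe sets that name 1 gene, the largest rises with no overlap between the groups were those of genes for chemoattraction, tissue injury, redox defence and the nucleolus. Cxcl1, a chemokine that attracts neutrophils, had log2 signals of 9.06, 10.57, 11.11, 8.99 and 9.70 in Cr livers 1 to 5, against 6.88, 7.05, 6.54, 7.72 and 6.66 in control livers 1 to 5. Every Cr liver was above every control, and the log2 fold change was 2.92 (SE 0.39, adjusted p = 0.000636, limma), or 7.55-fold. Its size hung on the controls, with 2.12 against the pooled controls of days 1, 3 and 7 and 1.73 against those of days 3 and 7 alone. Lgals3, which encodes the lectin galectin 3, had 10.53, 9.59, 10.39, 10.66 and 9.15 in Cr livers, against 7.09, 7.50, 7.30, 8.10 and 7.93 in control livers. Its log2 fold change was 2.48 (SE 0.30, adjusted p = 0.000398, limma). Gpnmb, a transmembrane glycoprotein of phagocytes and injured epithelium, rose by 2.29 (SE 0.43), and its smallest value after Cr was 7.44 in liver 5. S100a10, the partner of annexin A2, rose by 1.84 (SE 0.43), and Id1, an inhibitor of basic helix-loop-helix factors, by 1.76 (SE 0.30). For Id1 the 5 controls lay within 6.90 to 7.03, whereas Cr livers spanned 7.89 to 9.61.

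The rises of Pprc1 and Trmt61a were far more even across livers. Pprc1, a coactivator related to PGC-1 that acts on growth-linked mitochondrial genes, had 8.21, 7.88, 7.97, 8.29 and 7.83 in Cr livers, against 5.76, 6.38, 6.67, 6.44 and 6.28 in control livers. The log2 fold change of Pprc1 was 1.73 (SE 0.16, adjusted p = 0.000126, limma). Trmt61a, the catalytic subunit of a tRNA methyltransferase, had 7.54, 7.20, 7.54, 7.70 and 7.47 in Cr livers, against 5.72, 6.02, 6.04, 5.86 and 5.67 in control livers. With 1.63 (SE 0.11, adjusted p = 3.34e-05, limma), it was also apart from the controls in every liver. Gas5, a noncoding host of small nucleolar RNAs, rose by 1.71 (SE 0.24) and was less even. Its signal was 9.94 in Cr liver 5 and 11.07 to 11.45 in the other Cr livers. The others of the 15 largest were Lcn2 and Nqo1, described with their lists, the TWEAK receptor Tnfrsf12a, the actin-binding Enc1, the antiproliferative Btg3, the scramblase family member Plscr1 and Gar1, a core protein of box H/ACA ribonucleoproteins. Apart from Lcn2 and Nqo1, their log2 fold changes ran from 1.58 for Gar1 and Plscr1 to 1.69 for Tnfrsf12a.

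Among the same probe sets, the largest fall belonged to Stac3, known in skeletal muscle as part of the excitation-contraction machinery. Its log2 signals were 6.27, 8.07, 7.85, 6.67 and 7.99 in Cr livers, against 11.02, 11.82, 11.09, 11.02 and 11.93 in control livers. The groups were separated by over 2 log2 units, and the log2 fold change was -4.00 (SE 0.36, adjusted p = 0.000126, limma), which is 16.1-fold lower. Dusp1, the phosphatase that switches off stress-activated MAP kinases, had 8.38, 8.17, 8.20, 8.04 and 9.46 in Cr livers, against 10.23, 11.48, 11.08, 10.77 and 10.99 in control livers. It fell by 2.46 on the log2 scale (SE 0.28, adjusted p = 0.000355, limma), or 5.52-fold.

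Most of the other large falls were enzymes. Ddc, which makes dopamine and serotonin from their amino acid precursors, had 9.12, 9.44, 9.04, 8.68 and 8.95 in Cr livers, against 11.04, 11.04, 11.17, 10.85 and 11.10 in control livers. Its fall was 1.99 (SE 0.13, adjusted p = 3.34e-05, limma), and every Cr liver lay below every control. Oat, the mitochondrial ornithine aminotransferase, fell by 1.93 (SE 0.13, adjusted p = 3.34e-05, limma) with Cr livers at 9.44 to 10.09 and control livers at 11.33 to 11.84. Hykk, which phosphorylates hydroxylysine, fell by 2.45 (SE 0.43) and Dpyd, the first enzyme of pyrimidine breakdown, fell by 1.77 (SE 0.34). Aldh1b1, a mitochondrial aldehyde dehydrogenase, fell by 1.97 (SE 0.25), the sulfotransferase Sult1c2 fell by 1.87 (SE 0.24) and the carbohydrate kinase Fggy fell by 1.57 (SE 0.23). The medium-chain acyl-CoA synthetase Acsm2 fell by 2.25 (SE 0.30). Ppp1r3b, which brings protein phosphatase 1 to glycogen, fell by 1.73 (SE 0.32), and the lipid kinase Pik3c2g by 2.23 (SE 0.34). Sez6, Olr59 and the activin subunit gene Inhba completed the 15, with log2 fold changes of -2.33, -1.76 and -1.63.

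**Figure D1:**
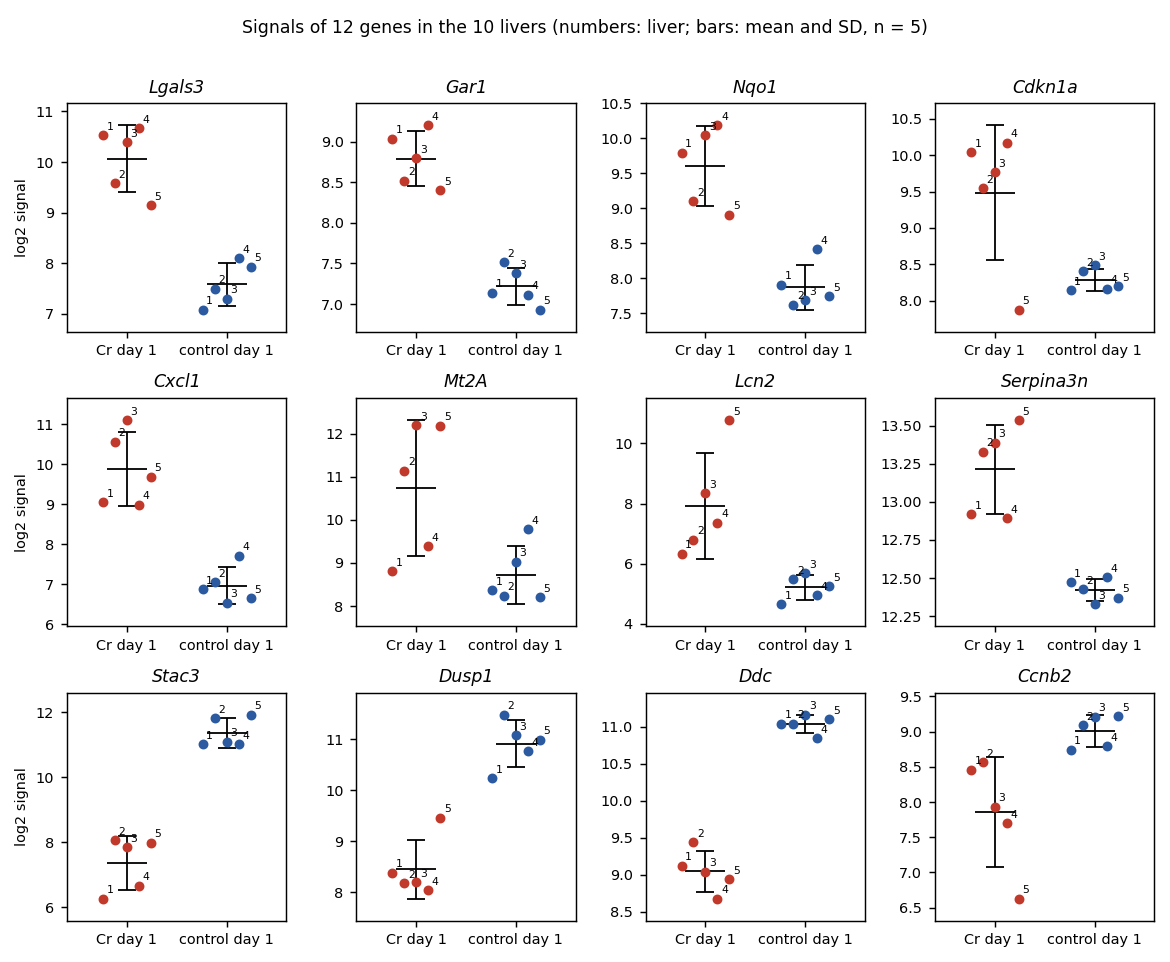
Log2 signal (vertical axis) of 12 genes in the 5 Cr day 1 livers (red, left) and the 5 day 1 control livers (blue, right), with the liver number beside each point and bars for the mean and SD (n = 5 each). The groups are apart for Lgals3, Gar1, Nqo1, Cxcl1, Lcn2, Serpina3n, Stac3, Dusp1, Ddc and Ccnb2, whereas Cr liver 5 lies below the controls for Cdkn1a and Cr livers 1 and 4 lie among the controls for Mt2A.

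The list with the most members higher was that of nucleolar ribosome assembly. Ribosomes are assembled in the nucleolus, where RNA polymerase I makes the precursor RNA, small nucleolar ribonucleoproteins modify it, and assembly factors fold and cleave it as ribosomal proteins join. Of 57 nucleolar assembly factors tested, 55 were higher after Cr and 0 lower, against 23.5% higher and 14.2% lower among all probe sets. Their median log2 fold change was 0.80, against 0.06 for all probe sets. Gar1 had 9.04, 8.52, 8.80, 9.20 and 8.41 in Cr livers, against 7.14, 7.51, 7.38, 7.11 and 6.93 in control livers, and the log2 fold change was 1.58 (SE 0.16, adjusted p = 0.000233, limma). Wdr43, a factor of the small subunit processome, had 8.78, 8.03, 8.18, 8.95 and 8.04 in Cr livers, against 6.64, 6.93, 6.98, 6.90 and 6.94 in control livers, a rise of 1.52 (SE 0.18). The box C/D proteins Nop56 and Nop58, which form the core around the methyltransferase fibrillarin, rose by 1.40 (SE 0.18) and 1.39 (SE 0.15). Only Nop10, at 0.12, and Rcl1, at 0.08, missed the adjusted p, and both were picked out because they were the exceptions.

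Rises extended to the polymerases of ribosomal and transfer RNA. Of 19 subunits and factors of RNA polymerases I and III, 16 were higher and 0 lower, with a median of 0.62. Among all probe sets, 23.5% were higher and 14.2% lower. Taf1d, a subunit of the promoter selectivity factor of polymerase I, rose by 1.45 (SE 0.26), Polr1e by 1.23 (SE 0.13), Polr1b by 0.97 (SE 0.14) and Polr3g, a polymerase III subunit, by 0.88 (SE 0.17). In all 4, every Cr liver was above every control. Myc, whose product drives ribosome production in many cell types, had 8.94, 7.77, 8.42, 8.57 and 7.47 in Cr livers, against 7.11, 8.38, 6.89, 7.34 and 6.38 in control livers. The groups overlapped through control liver 2, and the log2 fold change was 1.01 (SE 0.36, adjusted p = 0.0455, limma).

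Promoters of the nucleolar genes were searched for the E-box CACGTG, the letters to which MYC and related factors bind, since the genes moved together. RefSeq promoters on GRCr8, from 250 bases before to 50 after the start of each gene, were found for 52 of the 57 genes, and 17 of them (32.7%) held the letters. The share was 9.84% over the 7193 promoters found for tested genes and 6.65% over all 27457. Other lists, described below, were searched as well. The E-box was in 0 of 12 promoters of the CCT chaperonin and prefoldin list, whose members also rose. It was in 1 of 21 promoters of NRF2-linked genes, 1 of 15 of p53 targets, 0 of 40 of amino acid catabolism and 0 of 17 of mitosis genes. Being a palindrome, the motif reads the same on both strands. The antioxidant response core TGANNNNGC was in 48.1% of the nucleolar promoters, 43.5% of those of tested genes and 40.4% of all. The metal response core TGCNCNC was in 51.9%, 60.4% and 50.1% (both strands for each, and motifs may overlap). A match is a description of letters and not a site. Below are Gar1, with the largest rise of the list and no E-box, and the 3 genes with the largest rises that hold 1, Ebna1bp2, Tsr1 and Rrp12, whose products act in assembly of the large subunit, the small subunit and the export of both. Their log2 fold changes were 1.26 (SE 0.15), 1.22 (SE 0.13) and 1.10 (SE 0.16). Capitals mark the E-box, which begins 30, 20 and 3 bases after the start of Ebna1bp2, Tsr1 and Rrp12.
Gar1 (GRCr8 chr2:221056700-221056999, minus strand): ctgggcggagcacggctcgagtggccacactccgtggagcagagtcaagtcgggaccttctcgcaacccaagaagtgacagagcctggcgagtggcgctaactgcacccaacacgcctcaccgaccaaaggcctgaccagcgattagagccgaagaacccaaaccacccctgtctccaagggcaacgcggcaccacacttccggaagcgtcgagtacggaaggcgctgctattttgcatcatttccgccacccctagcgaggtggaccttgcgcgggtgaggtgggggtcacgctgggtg
Ebna1bp2 (GRCr8 chr5:137433284-137433583, plus strand): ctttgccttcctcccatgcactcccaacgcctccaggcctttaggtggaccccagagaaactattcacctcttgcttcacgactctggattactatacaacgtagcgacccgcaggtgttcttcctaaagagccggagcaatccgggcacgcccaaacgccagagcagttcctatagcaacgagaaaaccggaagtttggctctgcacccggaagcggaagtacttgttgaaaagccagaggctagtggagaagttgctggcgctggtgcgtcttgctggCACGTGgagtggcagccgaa
Tsr1 (GRCr8 chr10:60258540-60258839, plus strand): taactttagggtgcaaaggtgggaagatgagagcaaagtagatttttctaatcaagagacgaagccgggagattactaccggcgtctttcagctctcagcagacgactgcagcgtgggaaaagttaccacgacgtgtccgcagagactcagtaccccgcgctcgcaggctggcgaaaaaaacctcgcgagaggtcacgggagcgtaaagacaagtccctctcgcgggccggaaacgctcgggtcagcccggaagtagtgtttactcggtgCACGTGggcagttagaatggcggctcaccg
Rrp12 (GRCr8 chr1:250655269-250655568, minus strand): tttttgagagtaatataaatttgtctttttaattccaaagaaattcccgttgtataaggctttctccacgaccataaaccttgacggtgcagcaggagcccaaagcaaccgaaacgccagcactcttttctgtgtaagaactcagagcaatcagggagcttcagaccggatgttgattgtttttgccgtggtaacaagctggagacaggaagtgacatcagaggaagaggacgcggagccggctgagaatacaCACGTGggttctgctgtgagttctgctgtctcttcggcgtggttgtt

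Translation and its supply lines moved the same way, and the counts stand against 23.5% higher and 14.2% lower among all probe sets. Of 29 cytosolic ribosomal proteins 28 were higher and 0 lower, each by a small amount, with a median of 0.47 and a largest value of 0.65 for Rpl6. For Rpl6, Cr livers lay at 12.71 to 13.18 and control livers at 12.14 to 12.46. Of 39 initiation and elongation factors 32 were higher and 0 lower, led by the helicase Eif4a1 with 1.07 (SE 0.17, adjusted p = 0.00118, limma). Of 21 aminoacyl-tRNA synthetases and their scaffold proteins, 15 were higher and 0 lower. Nucleotide synthesis had 12 of 22 higher and 1 lower, with Ctps1, which makes CTP, at 1.25 (SE 0.17). The polyamine enzymes Srm (spermidine synthase) and Odc1 (ornithine decarboxylase) rose by 0.95 (SE 0.13) and 0.75 (SE 0.17), among 4 of 10 polyamine genes higher and 2 lower. In RNA handling, 28 of 40 splicing factors and hnRNPs were higher and 2 lower, and 19 of 30 nuclear transport genes were higher and 1 lower. Without Cr liver 1 the count of splicing genes higher was 18. Ddx39a, a helicase of the first list, rose by 1.48 (SE 0.21), and the export receptor Xpo1 by 0.78 (SE 0.16).

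Protein folding and turnover genes of the cytosol rose with them, where all probe sets gave 23.5% higher and 14.2% lower. The CCT chaperonin folds actin, tubulin and other new proteins in a closed chamber, and prefoldin hands them to it. Of the 12 chaperonin and prefoldin subunits tested, 11 were higher and 0 lower, with a median of 0.81. Cct2 had 11.42, 10.83, 11.19, 11.55 and 10.61 in Cr livers, against 10.21, 10.10, 10.05, 10.09 and 10.07 in control livers, and rose by 1.01 (SE 0.16, adjusted p = 0.0013, limma). Of 25 heat shock proteins 19 were higher and 1 lower. The small heat shock protein Hspb1 rose by 1.11 (SE 0.33) with overlapping groups, and Hsph1, a nucleotide exchange factor, by 0.98 (SE 0.18) with no overlap. Of 35 proteasome subunits 23 were higher and 0 lower, led by Psmd14, a deubiquitinating subunit of the lid, with 0.65 (SE 0.16).

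Folding genes of the endoplasmic reticulum stayed near the background. Only 7 of 34 were higher and 1 lower, with a median of 0.04. The integrated stress response, in which ATF4 raises amino acid supply genes, had 5 of 22 higher and 2 lower, near the 23.5% and 14.2% of all probe sets, and 3 were higher without Cr liver 3 or control liver 1 or 5. Slc3a2, the heavy chain of amino acid exchangers, rose by 1.08 (SE 0.12) with no overlap. Atf3 had 8.34, 6.42, 7.11, 8.52 and 5.95 in Cr livers, against 5.63, 5.68, 6.20, 6.10 and 5.81 in control livers. The rise of Atf3 was 1.38 (SE 0.44, adjusted p = 0.0293, limma), carried mostly by livers 1 and 4, and liver 5 lay within the controls. Gdf15, a secreted stress signal, fell by 0.98 (SE 0.30), and its log2 fold change was -0.30 (adjusted p = 0.391, limma) against the pooled controls of days 1, 3 and 7. Among 19 immediate early genes and MAP kinase phosphatases tested, 4 were higher, which is also near the background, and 2 lower. The count higher was 2 without Cr liver 1 and 7 without control liver 4. Egr1 rose by 1.26 (SE 0.24) while Dusp1 fell, as described above. Against the controls of days 3 and 7 alone, Egr1 was at 0.79 and missed the threshold (adjusted p = 0.0736, limma).

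**Figure D2:**
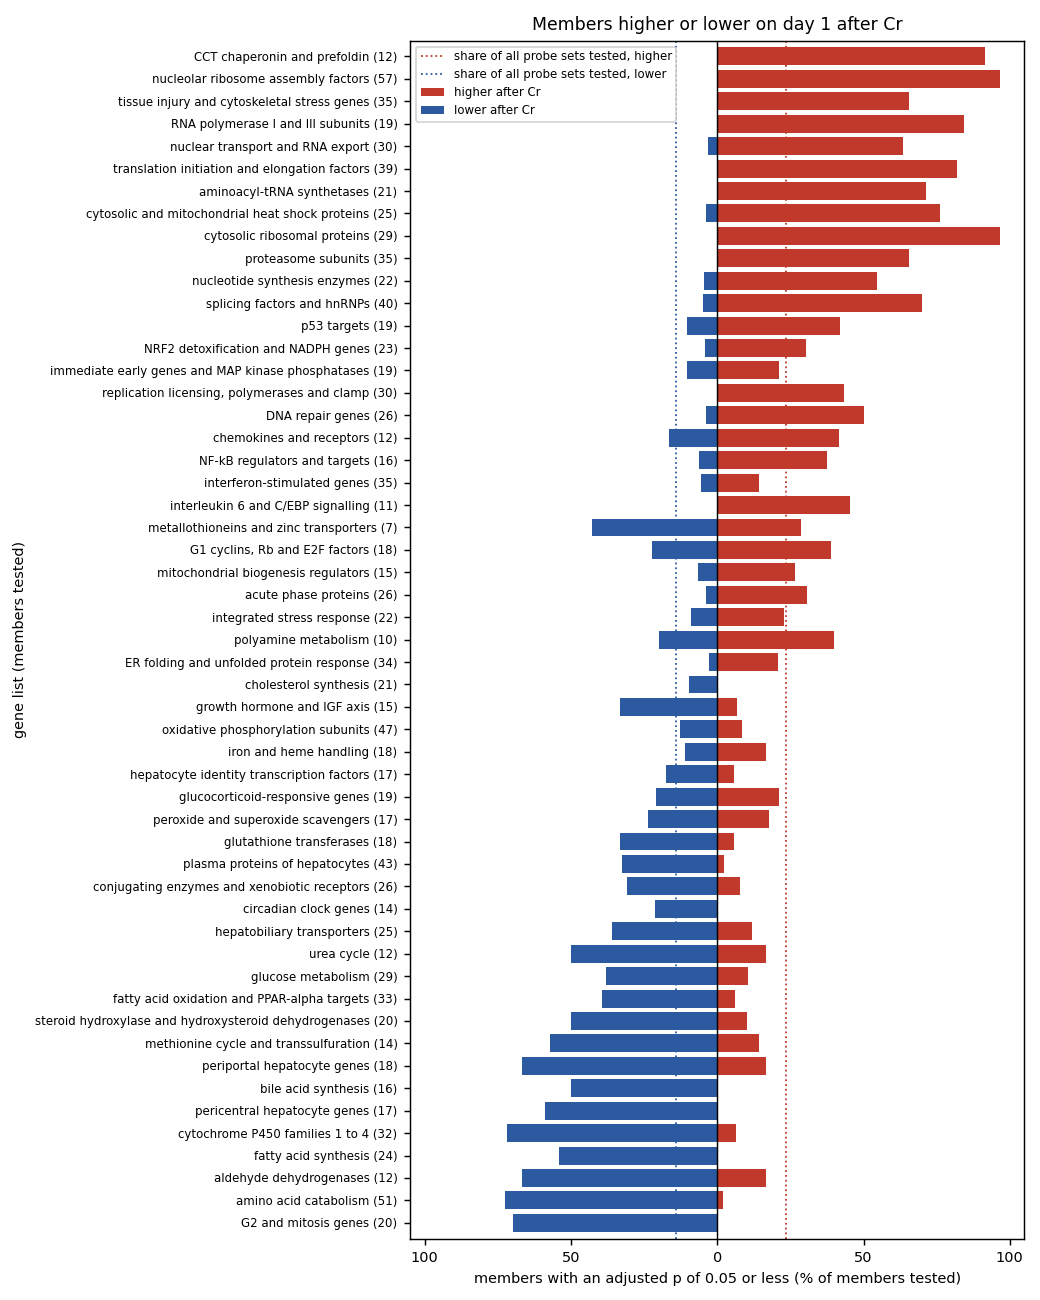
Share of tested members (horizontal axis, percent) that were higher (red, right) or lower (blue, left) after Cr at an adjusted p of 0.05 or less, for 53 gene lists with the number tested in parentheses. Dotted lines mark the shares among all 13286 probe sets, 23.5% higher and 14.2% lower.

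Genes of metal binding and redox defence gave a divided picture. Metallothioneins bind metals through cysteines and are induced through MTF1. Mt2A had 8.81, 11.14, 12.20, 9.38 and 12.18 in Cr livers, against 8.36, 8.24, 9.03, 9.79 and 8.21 in control livers. Livers 2, 3 and 5 were above all controls, whereas livers 1 and 4 lay within the control range. The log2 fold change of Mt2A was 2.02 (SE 0.64, adjusted p = 0.0293, limma). Of 7 metallothioneins, zinc transporters and their regulators tested, 2 were higher, near the 23.5% of all probe sets, and 3 lower, against 14.2%. The lower ones were the importers Slc39a8 at -0.62 (SE 0.08) and Slc39a4 at -0.58 (SE 0.14), and the manganese exporter Slc30a10 at -0.45 (SE 0.12).

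NRF2 is the transcription factor that electrophiles release from KEAP1 to switch on detoxifying enzymes. Of 23 NRF2-linked genes tested, 7 were higher, not far above the 23.5% of all probe sets. Only 1 was lower, against 14.2% of all probe sets, and the median was 0.36. The count higher was 4 without Cr liver 1 or 4 and 13 without Cr liver 5. Nqo1, a quinone reductase, had 9.79, 9.11, 10.04, 10.19 and 8.91 in Cr livers, against 7.91, 7.62, 7.69, 8.41 and 7.74 in control livers. It rose by 1.73 (SE 0.25, adjusted p = 0.00087, limma) with no overlap. The aldehyde reductase Akr7a3 had 12.84, 12.33, 12.75, 13.38 and 10.35 in Cr livers, against 11.26, 10.75, 11.12, 10.51 and 10.46 in control livers. It rose by 1.51 (SE 0.46), with Cr liver 5 below all 5 controls. Srxn1, which repairs overoxidised peroxiredoxins, rose by 1.33 (SE 0.45, adjusted p = 0.0375, limma) and overlapped through liver 5. Me1, the cytosolic malic enzyme that supplies NADPH, fell by 1.10 (SE 0.11) with no overlap. Hmox1 at 0.44 (adjusted p = 0.055, limma), Txnrd1 at 0.36, Gclc at 0.04 and Gclm at -0.0041 did not pass, and these textbook targets were chosen after their values were seen. Glutathione synthetase, Gss, also named after its value was seen, rose by 0.76 (SE 0.09), with Cr livers at 8.80 to 9.19 and control livers at 8.09 to 8.39. Of 18 glutathione transferases tested, 1 was higher and 6 lower, and Gstm7 fell by 1.40 (SE 0.19).

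Targets of p53 had a median above the control mean in Cr livers 1 to 4 and not in liver 5. Of 19 tested, 8 were higher and 2 lower, against 23.5% and 14.2% of all probe sets, with a median of 0.41. Aen, a p53-induced nuclease, had 8.48, 7.98, 7.98, 8.72 and 7.79 in Cr livers, against 6.89, 6.63, 6.92, 6.72 and 6.89 in control livers. Aen was apart in all 5 livers, with 1.38 (SE 0.16, adjusted p = 0.000381, limma). Ccng1, cyclin G1, had 10.09, 9.30, 9.76, 10.25 and 8.49 in Cr livers, against 7.95, 8.08, 8.24, 8.40 and 8.11 in control livers, a rise of 1.42 (SE 0.28). Cdkn1a, the p21 inhibitor of cyclin-dependent kinases, had 10.04, 9.55, 9.76, 10.17 and 7.88 in Cr livers, against 8.15, 8.41, 8.49, 8.17 and 8.20 in control livers. Livers 1 to 4 were more than 1 log2 unit above every control and liver 5 was below all of them, for a mean of 1.20 (SE 0.35, adjusted p = 0.0221, limma). Mdm2, the ubiquitin ligase of p53, rose by 1.36 (SE 0.37), with liver 5 within the controls. Of 26 DNA repair genes tested 13 were higher and 1 lower, led by Apex1, the abasic site endonuclease, with 1.08 (SE 0.13) and no overlap, and Mgmt, which removes alkyl groups from guanine, with 0.67 (SE 0.18).

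Genes of entry into the cell cycle went both ways, and 13 of 30 genes of DNA replication were higher. Among all probe sets, 23.5% were higher and 14.2% lower. Of 18 G1 genes, 7 were higher and 4 lower, with a median of 0.15, and 3 or 4 were higher when Cr liver 1, 3 or 4 or any 1 control was left out. Rb1, which holds E2F factors in check, had 7.86, 8.09, 7.75, 7.60 and 8.37 in Cr livers, against 9.01, 9.49, 9.28, 9.26 and 9.09 in control livers. It fell by 1.29 (SE 0.15, adjusted p = 0.000323, limma). Cyclin D1, Ccnd1, rose by 0.88 (SE 0.31, adjusted p = 0.0458, limma) and Mybl1, a relative of MYB, by 1.803 (SE 0.52), both with overlapping groups. Of the 30 replication genes 0 were lower, and the median was 0.31. The helicase subunits Mcm4, Mcm6 and Mcm2, which license replication origins, rose by 1.17 (SE 0.20), 1.09 (SE 0.25) and 1.03 (SE 0.23), and the single-strand binding protein Rpa2 by 0.97 (SE 0.15).

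Genes of G2 and mitosis were lower than in the same-day controls, and this result hung on the choice of controls. Of 20 tested 14 were lower and 0 higher, against 14.2% and 23.5% of all probe sets, with a median of -0.69. Ccnb2, cyclin B2, had 8.46, 8.57, 7.93, 7.70 and 6.63 in Cr livers, against 8.74, 9.09, 9.21, 8.79 and 9.22 in control livers, and fell by 1.15 (SE 0.31, adjusted p = 0.0139, limma). Cdc20, an activator of the anaphase-promoting complex, fell by 1.00 (SE 0.28), and Cdca3 and the kinesin Kif20a by 1.00 (SE 0.19) and 0.99 (SE 0.28). Cdkn3, a phosphatase of cell cycle kinases outside the list, had 7.86, 8.01, 7.28, 7.12 and 6.06 in Cr livers, against 8.49, 8.80, 8.74, 8.52 and 9.07 in control livers. It fell by 1.45 (SE 0.31). In the 5 genes named here the groups did not overlap, and Cr liver 5 was the lowest. Leaving out 1 liver at a time moved the count of the list between 6 and 19, with 6 or 7 lower without Cr liver 3 or 4, and 6 to 9 without any 1 of the controls.

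The 15 control livers of the Cr arm differed in the same genes by day. Against the mean of the day 1 controls, the median level of the 20 genes ranged from -1.15 to -0.61 in day 3 controls and from -2.88 to -1.001 in day 7 controls, with -0.12 to 0.25 in the day 1 controls themselves. In Cr livers 1 to 5 of day 1 it was -0.09, -0.38, -0.72, -0.73 and -1.65. Between control days, 244 probe sets (1.84%) differed at an adjusted p of 0.05, day 1 against the mean of days 3 and 7, and all 20 of these genes were among them, higher on day 1. The count of probe sets was 155, 139 and 439 without day 1 control 2, 3 or 5. When the 15 controls were pooled, 0 of the 20 were lower and 0 higher after Cr, and their median was 0.25. Pooling gave 4772 probe sets higher (35.9%) and 2901 lower (21.8%) overall. For Ccnb2 the log2 fold change was -0.02 against pooled controls, for Cdc20 0.09, for Cdkn3 -0.30, for Ect2, a regulator of cytokinesis, 0.16 against -0.96 on the same day, and for Hmmr, a spindle protein, 0.14 against -0.94. These 5 were the genes whose values moved most with the controls. The replication list shifted less, with 23 of 30 higher against pooled controls, and the nucleolar list had 56 of 57 higher. The labels do not say how the control livers of the 3 days were batched, so day and processing cannot be told apart.

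**Figure D3:**
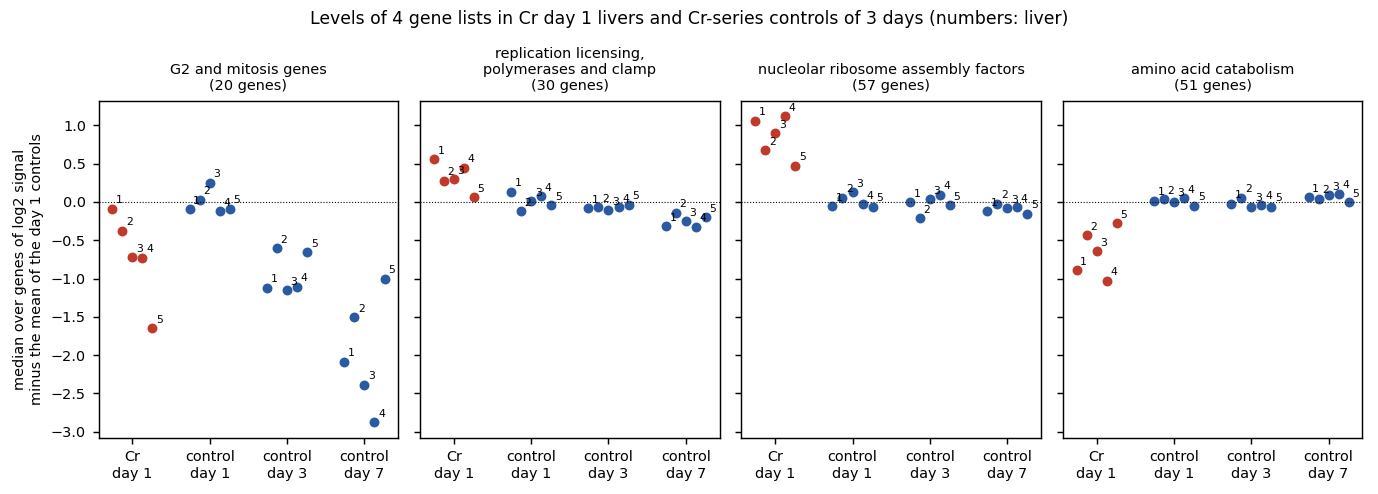
Median over genes of the log2 signal minus the mean of the day 1 controls (vertical axis) for 4 gene lists, in the 5 Cr day 1 livers (red) and in the Cr-arm control livers of days 1, 3 and 7 (blue, 5 each), with liver numbers. Mitosis genes reach -2.88 in day 7 controls, whereas the nucleolar list stays between -0.21 and 0.13 in all 15 controls and lies at 0.47 to 1.12 in Cr livers.

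Most of the listed injury genes were higher. The members were chosen with earlier results of these data known, so the count may partly reflect that choice. Of 35 genes of tissue injury and cytoskeletal stress tested, 23 were higher and 0 lower, with a median of 0.77. The shares among all probe sets were 23.5% higher and 14.2% lower. Of the 35, 2 passed the filter through 1 group only and so had to differ. With the filter at a log2 signal of 7, the count higher was 15. Besides Lgals3, Gpnmb and S100a10, Lcn2, the siderophore-binding lipocalin 2, stood out. Lcn2 had 6.33, 6.80, 8.33, 7.36 and 10.78 in Cr livers, against 4.66, 5.49, 5.68, 4.96 and 5.26 in control livers. All 5 controls were under the filter value of 6, so the gene was tested through the Cr livers alone, and its log2 fold change was 2.71 (SE 0.68, adjusted p = 0.0103, limma). Liver 5, with the smallest median shift over the called probe sets, had the highest Lcn2.

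Inflammatory lists moved less than the injury list. Their counts stand against 23.5% higher and 14.2% lower among all probe sets. Of 12 chemokine genes tested 5 were higher and 2 lower. Cxcl10 rose by 0.84 (SE 0.28), and Cxcl13, which attracts B cells, fell by 0.92 (SE 0.33), both with overlapping groups. Of 11 genes of interleukin 6 signalling 5 were higher and 0 lower. Stat3, its transcription factor, had 10.02, 10.88, 10.79, 10.12 and 10.19 in Cr livers, against 8.97, 9.12, 9.08, 9.34 and 8.81 in control livers, and rose by 1.34 (SE 0.18, adjusted p = 0.000609, limma). Bcl3, an atypical inhibitor of NF-kB, rose by 1.29 (SE 0.19). Of 26 acute phase proteins 8 were higher, not far above the share of all probe sets, and 1 lower. Of the 26, 1 passed the filter through 1 group only. The protease inhibitor Serpina3n had 12.92, 13.33, 13.39, 12.89 and 13.54 in Cr livers, against 12.47, 12.43, 12.33, 12.51 and 12.37 in control livers, a rise of 0.79 (SE 0.13). Lbp, which carries bacterial lipopolysaccharide to CD14, rose by 1.02 (SE 0.37, adjusted p = 0.0483, limma), and Cd14 itself fell by 0.85 (SE 0.20). The NF-kB list had 6 of 16 higher and 1 lower, and 3 were higher without Cr liver 3 or 4 or control liver 2. Of 35 interferon-stimulated genes 5 were higher and 2 lower, with Isg15, a ubiquitin-like modifier, at 1.36 (SE 0.33), and the other 28 did not pass. The count of interferon-stimulated genes higher was 3 without Cr liver 1 or 3 or control liver 2 or 3, 8 without Cr liver 5 and 11 without control liver 4.

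Most of the neutrophil and bile duct cell markers were below the filter value. The summed signals of these 2 lists include Lcn2 and Spp1, which were tested through the Cr livers alone, and the sums were not tested. Of 9 neutrophil markers on the array 2 passed the filter. Lcn2 did so through the Cr livers alone and so had to differ, and S100a9, above 6 in 5 Cr livers and 1 control, rose by 1.34 (SE 0.34, adjusted p = 0.0113, limma) with overlapping groups. Cxcr2, Csf3r, Camp, Mmp8, Mmp9 and Np4 were below a log2 signal of 6 on all 10 arrays. The summed linear signal of the neutrophil list was 354 to 1970 in Cr livers and 169 to 225 in control livers. Of 11 Kupffer cell markers 1 was higher, Cd163 at 0.54, and 0 lower, and the sums were 5270 to 8010 in Cr livers and 5300 to 7130 in control livers. For monocytes, 2 of 5 tested were higher and 1 lower, and Ccr2, Itgam, Cx3cr1 and Trem2 were below 6 on every array. Of 7 cholangiocyte markers on the array, Spp1 and Epcam were higher, by 1.29 (SE 0.28) and 1.14 (SE 0.32), while Krt19, Krt7, Cftr, Cldn4 and Cldn7 were below 6 on every array. Spp1 was tested through the Cr livers alone. The sums of that list were 458 to 1290 in Cr livers and 340 to 493 in control livers. The sums of the 10 endothelial markers were 3990 to 6150 in Cr livers and 4730 to 5200 in control livers, and 1 of 8 tested was higher. The part of these cells in the injury and chemokine results was not tested. Marker counts stand against 23.5% higher and 14.2% lower among all probe sets.

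Metabolic genes of hepatocytes were lower in many lists, set against 14.2% lower and 23.5% higher among all probe sets. Amino acid catabolism had 37 of 51 lower and 1 higher, with a median of -0.66. Beside Hykk and Dpyd, the proline dehydrogenase Prodh had 7.93, 8.44, 8.33, 7.80 and 9.16 in Cr livers, against 10.04, 9.82, 9.85, 10.12 and 9.40 in control livers, a fall of 1.52 (SE 0.23, adjusted p = 0.00108, limma). Kynu, of tryptophan breakdown, fell by 1.36 (SE 0.20). In the urea cycle and its glutamine and ornithine branches 6 of 12 were lower and 2 higher. Gls2, the liver glutaminase, fell by 1.29 (SE 0.16), and Otc, the ornithine transcarbamylase of mitochondria, by 0.82 (SE 0.09) with Cr livers at 11.33 to 11.76 and control livers at 12.26 to 12.43. Methionine cycle and transsulfuration genes had 8 of 14 lower and 2 higher, with 5 lower without Cr liver 4 or control liver 3 or 5. Gnmt and Bhmt, which consume and regenerate methyl groups, fell by 1.25 (SE 0.22) and 1.06 (SE 0.17), whereas Mat2a, the methionine adenosyltransferase of dividing and nonhepatic cells, rose by 0.77 (SE 0.12).

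Cytochromes P450 and lipid enzymes were lower too, and the counts stand against the same 14.2% lower and 23.5% higher. Of 32 P450 genes of families 1 to 4, 23 were lower and 2 higher, with a median of -0.54. Cyp2d3 had 11.13, 11.31, 11.34, 11.70 and 11.37 in Cr livers, against 12.66, 12.43, 12.45, 12.68 and 12.71 in control livers, and fell by 1.21 (SE 0.11, adjusted p = 0.000126, limma). Cyp4f4, a fatty acid hydroxylase, fell by 1.42 (SE 0.25) and the male-predominant steroid hydroxylase Cyp2a2 by 1.14 (SE 0.22). Cyp2c12, known as the female-predominant form in rats, rose by 1.10 (SE 0.36) with overlapping groups. P450 genes of 1 subfamily are near copies, so a probe set may read more than 1 of them. Fatty acid synthesis had 13 of 24 lower and 0 higher. The desaturase Fads2 fell by 1.501 (SE 0.18) with control livers within 10.18 to 10.31 and Cr livers at 8.26 to 9.32. Scd, the delta-9 desaturase, fell by 1.73 (SE 0.48), and control liver 1, at 10.89, lay among the Cr livers.

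Fatty acid oxidation had 13 of 33 lower and 2 higher, where all probe sets gave 14.2% lower and 23.5% higher. Its gatekeeper Cpt1a rose by 1.04 (SE 0.18), with Cr livers at 10.90 to 11.95 and control livers at 10.08 to 10.63. The peroxisomal bifunctional enzyme Ehhadh fell by 1.24 (SE 0.26). Bile acid synthesis had 8 of 16 lower and 0 higher, while Cyp7a1, the rate-limiting enzyme, was at 0.27 (SE 0.57, adjusted p = 0.736, limma) with a wide spread in both groups. It was named after its value was seen. The count of the list was 5 without Cr liver 3 or 4. Of 25 hepatobiliary transporters 9 were lower and 3 higher. The uptake carrier Slco1b2 had 9.92, 10.98, 10.70, 10.13 and 11.45 in Cr livers, against 11.72, 11.69, 11.71, 11.73 and 11.78 in control livers, a fall of 1.09 (SE 0.24). The efflux pump Abcc6 fell by 1.16 (SE 0.22) and Abcc3, which exports conjugates to blood, rose by 1.26 (SE 0.45) with livers 1 and 4 highest. Glucose metabolism had 11 of 29 lower and 3 higher, among them Pklr, the liver pyruvate kinase, at -1.503 (SE 0.17), and Pc, pyruvate carboxylase, at -1.35 (SE 0.24).

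Of 12 aldehyde dehydrogenases 8 were lower and 2 higher, and of 20 steroid hydroxylases and hydroxysteroid dehydrogenases 10 were lower and 2 higher. The share lower among all probe sets was 14.2%. Of 43 plasma proteins 14 were lower and 1 higher, and 9 were lower without Cr liver 1. Other lists had fewer members higher than the 23.5% of all probe sets. Oxidative phosphorylation had 4 of 47 higher and 6 lower, with a median of -0.07. The count lower was 2 or 3 without Cr liver 1, 3 or 4 or control liver 1, 2, 3 or 5, and 11 without Cr liver 5. Cholesterol synthesis had 0 of 21 higher and 2 lower, with the count lower at 7 without Cr liver 5 and 1 without any 1 of 6 other livers, namely Cr livers 1, 3 and 4 and control livers 1, 3 and 4. Circadian clock genes had 0 of 14 higher and 3 lower, or 1 lower without Cr liver 1 or 3 or control liver 2, 3, 4 or 5. Genes of both liver zones were lower: 12 of 18 periportal genes and 10 of 17 pericentral genes, with medians of -0.35 and -0.50 and 3 and 0 higher.

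Ordered by liver, the lists fell into different patterns. The nucleolar list had medians of 1.06, 0.68, 0.90, 1.12 and 0.47 above the control mean in Cr livers 1 to 5, and amino acid catabolism -0.89, -0.44, -0.65, -1.03 and -0.28, so both were most changed in livers 1 and 4. The inflammatory lists had no order in common. Chemokines had medians of 0.32, 0.14, 0.50, 0.17 and 0.23, interferon-stimulated genes of 0.26, 0.13, 0.37, 0.35 and 0.11, and acute phase proteins of -0.01, 0.13, 0.13, -0.02 and 0.23. Mt2A, Cxcl1 and Serpina3n, picked out after their values were seen, were each higher in livers 2, 3 and 5 than in livers 1 and 4, whereas Isg15 was lowest in liver 5. Mitosis genes were lowest in liver 5, and the p53 list, at 0.67, 0.28, 0.28, 0.49 and -0.10, was below the control mean there. With 5 livers no relation between lists was computed. Of 119 genes named here that passed the adjusted p, 102 passed in limma whichever 1 of the 10 livers was left out. The other 17 missed it without at least 1 liver: Abcc3, Akr7a3, Atf3, Ccnd1, Cd163, Cdkn1a, Cxcl10, Cxcl13, Cyp2c12, Gdf15, Hspb1, Lbp, Mt2A, Myc, Spink1, Srxn1 and Vxn. For Mt2A these were Cr livers 2, 3 and 5 and control livers 1, 2 and 5, and for Cdkn1a Cr livers 1, 3 and 4, with adjusted p-values up to 0.0706 and 0.0553.

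**Figure D4:**
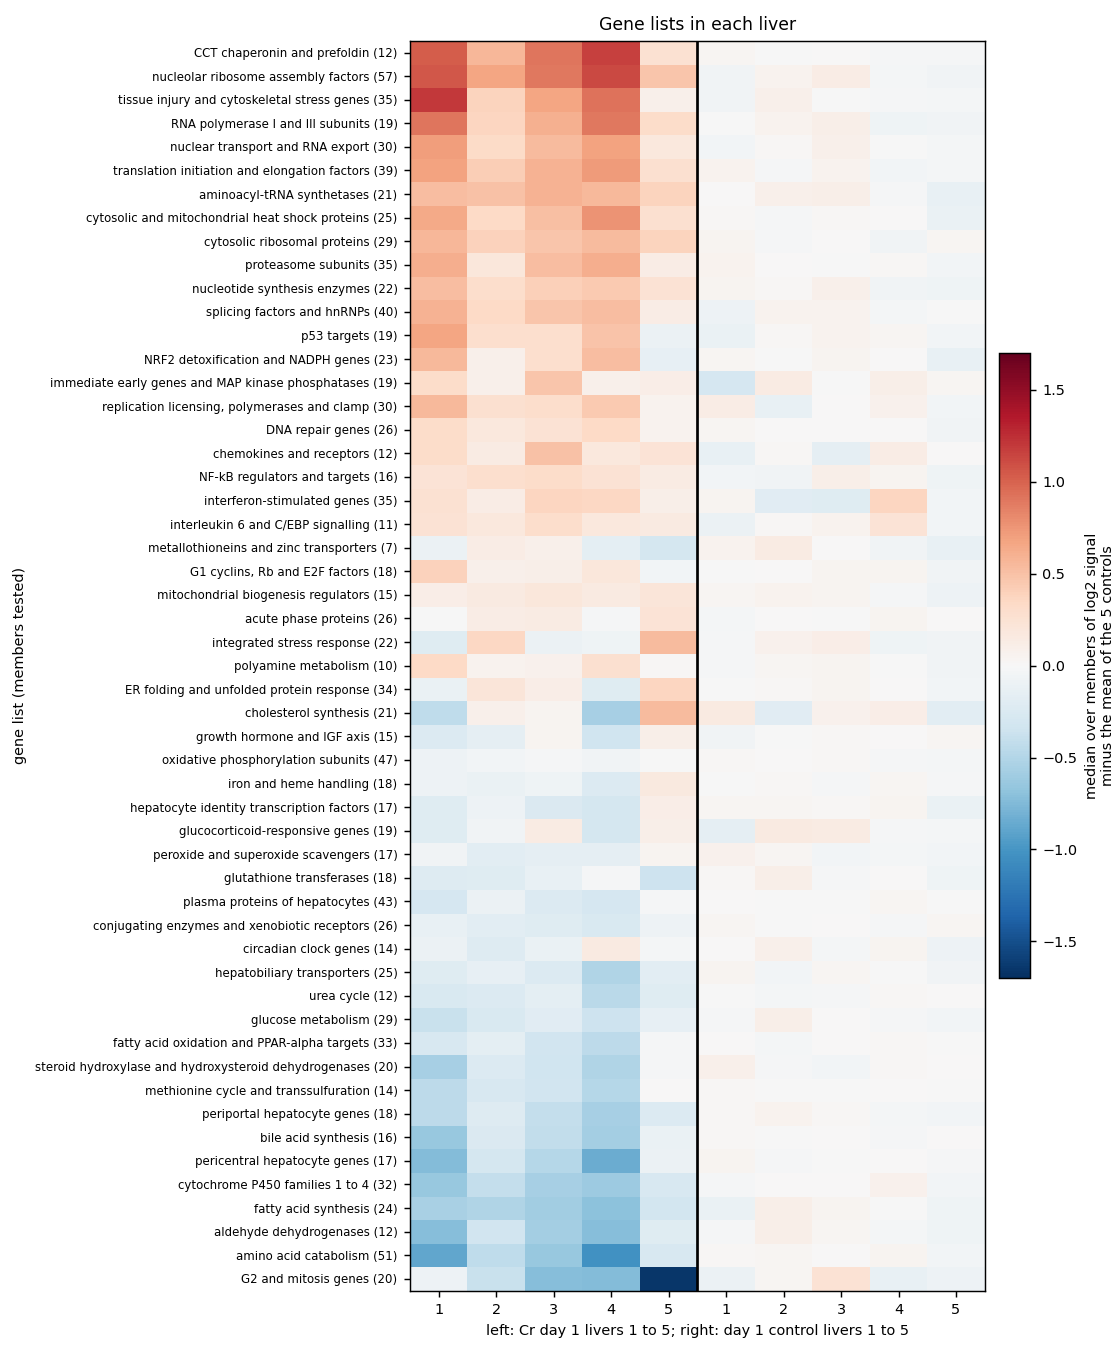
Median over tested members of the log2 signal minus the mean of the 5 controls (colour scale) for 53 gene lists (rows) in the 5 Cr day 1 livers (left of the line) and the 5 day 1 control livers (right). Livers 1 and 4 hold the strongest colours in most lists, whereas the mitosis row is deepest in liver 5, at -1.65.

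The response to Cr on day 1 was set against that to Cd on day 1, with the 4 Cd livers and 5 Cd controls of that day. The difference between the 2 effects passed the adjusted p for 1959 probe sets (14.7%), and for 1232, 1293 and 3488 without Cr liver 1, 4 or 5. Ribosome and folding genes were among those higher after Cr than after Cd, with 34 of 57 nucleolar factors, 9 of 12 chaperonin and prefoldin subunits and 18 of 30 replication genes, and none in these lists was lower. The median of the nucleolar list was 0.80 after Cr and 0.21 after Cd, and that of the chaperonin list 0.81 after Cr and 0.01 after Cd. Among the called genes the largest differences upward were Mybl1 (1.803 after Cr, -0.99 after Cd), Akr7a3 (1.51 after Cr, -1.25 after Cd) and Vxn (1.65 after Cr, -0.74 after Cd). The differences were 2.79, 2.76 and 2.39, with adjusted p-values of 0.00753, 0.00568 and 0.0261 in limma. For all 3, Cr liver 5 lay within or below the controls. Ect2 and Kif20a, at -0.96 and -0.99 after Cr, were lower still after Cd, with differences of 2.09 and 2.10.

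Interferon-stimulated genes were on the other side. Of 35 interferon-stimulated genes 22 were lower after Cr than after Cd and 0 higher, with medians of 0.24 after Cr and 0.97 after Cd. Of 16 NF-kB genes 5 were lower after Cr than after Cd and 0 higher, whereas of 12 chemokine genes 2 were lower and 1 higher, and of 11 genes of interleukin 6 signalling 1 was lower and 0 higher. Isg15 was at 1.36 after Cr and 3.62 after Cd, and S100a9 at 1.34 after Cr and 3.64 after Cd. The trypsin inhibitor Spink1 was at -1.33 after Cr and 0.84 after Cd, and the difference of -2.16 had an adjusted p of 0.0152 in limma. Sez6 and Acsm2 fell after Cr, and the differences from Cd were -1.91 for both. Of 34 folding genes of the endoplasmic reticulum 15 were lower after Cr than after Cd. Lower values after Cd gave the widest gap in 2 further lists: Kupffer cell markers had medians of 0.11 after Cr and -3.11 after Cd, with 10 of 11 differing, and mitosis genes -0.69 after Cr and -2.21 after Cd, with 20 of 20 differing. Some genes moved alike in size. Ddc was at -1.99 after Cr and -1.91 after Cd, a difference of -0.09 (SE 0.18), and Hykk at -2.45 after Cr and -2.32 after Cd, a difference of -0.13 (SE 0.68). A p that misses the threshold does not show equal effects.

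**Figure D5:**
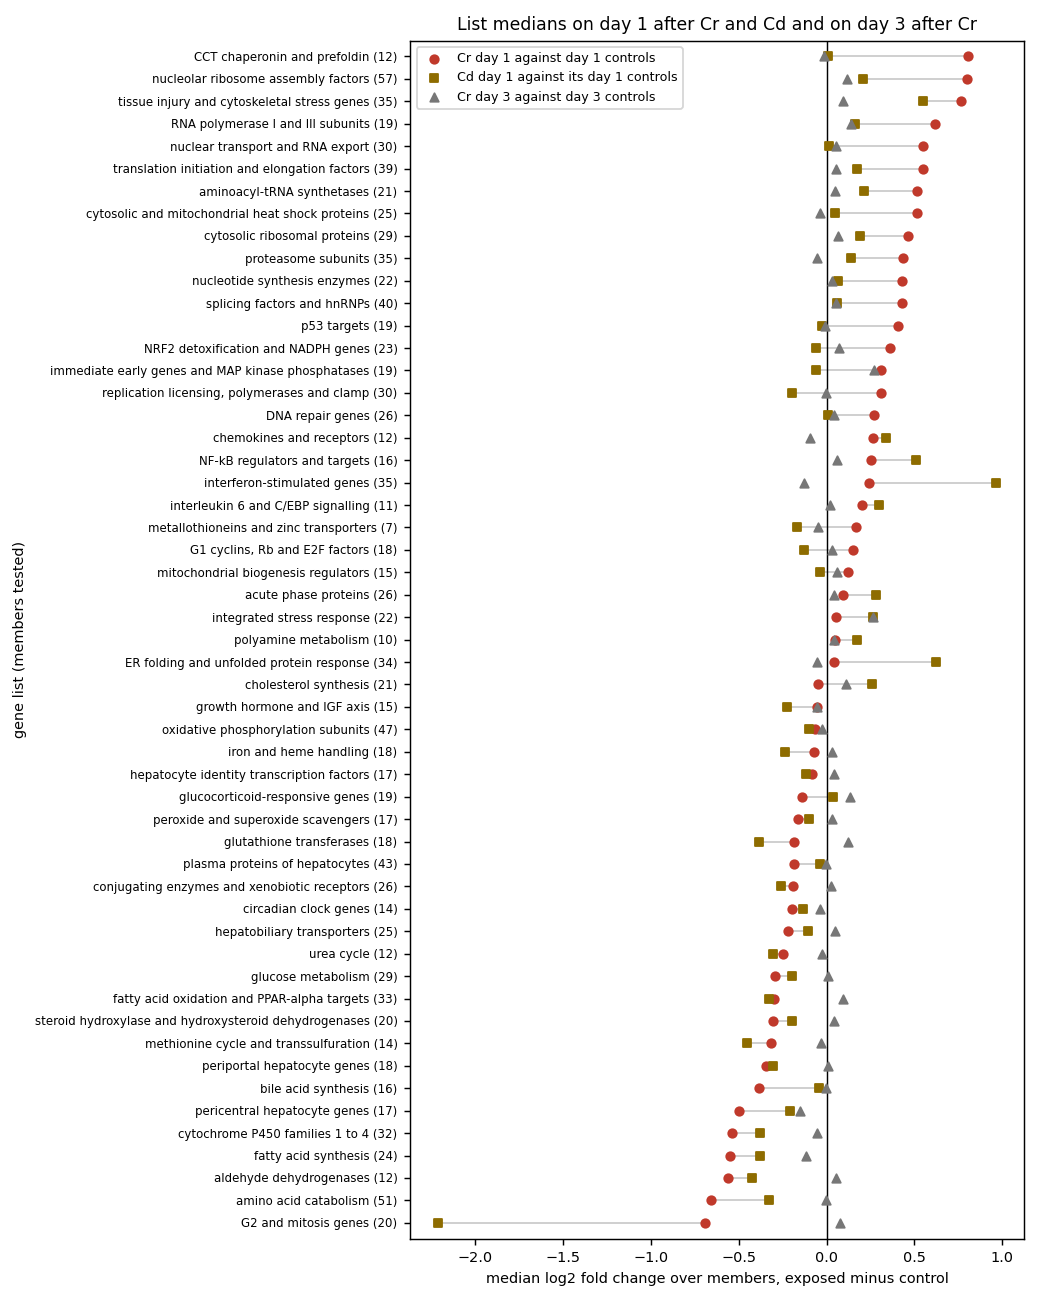
Median log2 fold change over tested members (horizontal axis) of 53 gene lists on day 1 after Cr (red circles), on day 1 after Cd (brown squares) and on day 3 after Cr (grey triangles), each against its own same-day controls. The nucleolar list lies at 0.80 after Cr on day 1, at 0.21 after Cd and at 0.12 on day 3 after Cr.

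Against day 3 the effect of day 1 differed at 3136 probe sets (23.6%), with 5 Cr livers and 5 controls on each day. Of the nucleolar list 44 of 57 were higher on day 1 than on day 3 and 0 lower, and of the ribosomal proteins 27 of 29 and 0 lower. Amino acid catabolism had 31 of 51 lower on day 1 than on day 3 and 0 higher, and P450 genes 16 of 32 lower and 0 higher. The day 3 medians of the 4 lists were 0.12, 0.06, 0.00 and -0.06. Cxcl1 was at 2.92 on day 1 and -0.89 on day 3, Lgals3 at 2.48 on day 1 and 0.13 on day 3, and Stac3 at -4.00 on day 1 and -0.64 on day 3. For Cxcl1 the log2 difference of day 1 controls from those of days 3 and 7 was -1.19 (adjusted p = 0.103, limma). The part of the controls in its difference between days was not tested. Dusp1 was at -2.46 on day 1 and 0.40 on day 3, and Sult1c2 at -1.87 on day 1 and 0.96 on day 3. The differences between days for these 5 genes were 3.81, 2.35, -3.36, -2.87 and -2.83, with adjusted p-values from 0.000484 for Cxcl1 to 0.00107 for Stac3 in limma. The same comparison gave 2.58 for Lcn2, 2.15 for Mybl1, 2.10 for Vxn, -2.53 for Sez6 and -2.51 for Hykk. Gpnmb did not differ between days beyond the error, with 2.29 on day 1 and 1.29 on day 3 (difference 1.00, SE 0.69).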

How the data were processed

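Liver RNA was measured on Affymetrix rat expression arrays. The deposited values are log2 signals per probe set, made by the authors with RMA in Partek. Of 31099 probe sets, 57 controls were left out; 20826 of the rest name 1 gene, 436 several and 9780 none, and genes with several were not named. Probe sets with a log2 signal of 6 or more on at least 5 of the 10 arrays were tested with limma 3.58.1 (R 4.3.3), with Benjamini-Hochberg adjustment over all 13286. The threshold was an adjusted p of 0.05, with a fold of 1.8 for called probe sets. The study's methods pool controls of the 3 days, which was run as an alternative. Differences from Cd day 1 (19 arrays) and Cr day 3 (20 arrays) were contrasts of effects. The authors left out 1 Cd sample of day 1, which lay with the unexposed controls and had not accumulated Cd. No Cr liver of day 1 was left out in the comparison with Cd, so Cr liver 5, the weakest, was kept.

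A gene was read on its brightest probe set. Named genes were the 15 largest rises and falls with no overlap, up to 4 members of each list, the 5 largest differences in each direction from Cd day 1 and from Cr day 3, and the 5 that moved most with the controls. Members and lists were chosen with earlier results of these data known. The fit was tested on simulated data in which both groups had the spread of the control livers. The wider spread of Cr livers in some genes was not simulated. The number of arrays limits the precision, and arrays give no read depth.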

Additional observations from a re-analysis of the deposited data

Results flagged for a closer look

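Among 258 groups of 5 livers examined for the named genes, 12 held a liver far from the other 4, and chance alone gives about 1 in 20. Cr liver 5 was the distant one in 4 of them, with Cdkn1a at 7.88 (next 9.55), Dusp1 at 9.46 (next 8.38), Gas5 at 9.94 (next 11.07) and Pklr at 8.26 (next 7.59), all log2 signals. In controls it was liver 1 for Ccnd1 at 8.28, Scd at 10.89, Slc39a8 at 10.43 and Wdr43 at 6.64, liver 2 for Cpt1a at 10.08, Ttr at 14.48 and Vxn at 6.62, and liver 3 for Tnfrsf12a at 6.78.

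The effect of Cr on day 1 differed from that of Cd on day 1 by a test of the difference in limma for S100a9 (-2.30), Isg15 (-2.26), Spink1 (-2.16), Acsm2 (-1.91), Sez6 (-1.91), Ect2 (2.09), Kif20a (2.10), Vxn (2.39), Akr7a3 (2.76) and Mybl1 (2.79), as differences of log2 fold changes. It differed from the effect of Cr on day 3 for Stac3 (-3.36), Dusp1 (-2.87), Sult1c2 (-2.83), Sez6 (-2.53), Hykk (-2.51), Vxn (2.10), Mybl1 (2.15), Lgals3 (2.35), Lcn2 (2.58) and Cxcl1 (3.81).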

How the results depend on the processing

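The count of 703 called probe sets was 5010 with no fold threshold, 1779 at a fold of 1.5 and 400 at a fold of 2, and 521 to 954 with 1 liver left out. Other alternatives gave 538 to 898, and 596 of the 703 were also called against the 15 pooled controls. The 1959 differences from Cd became 3835 with array weights and 1232 to 3488 with 1 liver left out, and the 3136 from day 3 became 5140 with array weights and 2354 to 4424. Control days differed at 139 to 439 probe sets with 1 control left out. Same-numbered livers had a mean correlation of deviations of 0.107, from -0.0313 to 0.271, against -0.0264 for other pairs, and 3 of 5 correlated best with their own number. The numbers were not taken as pairs, and a replicate block gave 697 called probe sets. With it the named genes Ccnd1 (adjusted p = 0.0706), Cyp2c12 (0.0542) and Gdf15 (0.0654, all limma) missed the threshold, and the lower counts became 2 for oxidative phosphorylation and 1 for cholesterol synthesis. Against the controls of days 3 and 7, 11 named genes missed it. These were Egr1, Myc at 0.74, Cyp2c12 at 0.52 and the 8 genes whose signs turned. Acsm2 at -1.59, Mcm6 at 1.91 and Cxcl1 at 1.73 still passed, but their sizes differed from those against the same-day controls.

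Signs turned as follows, none past the adjusted p in limma after turning. Against controls of days 3 and 7, the log2 fold changes were 0.55 for Ccnb2, 0.64 for Cdc20, 0.47 for Cdca3, 0.27 for Cdkn3, 0.72 for Ect2, 0.68 for Hmmr, 0.62 for Kif20a and 0.031 for Gdf15. Against pooled controls they were 0.0902 for Cdc20, 0.16 for Ect2, 0.14 for Hmmr and 0.0805 for Kif20a. The remaining turns were in genes that never passed. Cyp7a1 was at -0.16 with pooled and -0.37 with later controls, -0.10 without Cr liver 5 and -0.24 without control liver 4. Rcl1 was at -0.0002 with pooled and -0.0425 with later controls. Gclc was at -0.078 without Cr liver 4 and -0.0207 without control liver 5. Gclm was at 0.0175 with array weights and -0.10 to 0.12 without 1 liver. Hnf4a was at 0.0282 after quantile normalization, 0.0053 with pooled and 0.0147 with later controls, 0.0246 as the median of its probe sets and -0.0544 to 0.0232 without 1 liver. Alb was at 0.00 after quantile normalization. The causes were not tested.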
